A study of Mus musculus with 8 samples.

Results

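Basophil-lineage cells were taken from single-cell RNA sequencing of mouse bone as those cells in which Mcpt8 and Prss34, the genes of a pair of basophil serine proteases, together gave at least 20 of every 10,000 transcripts. A transcript was counted as 1 unique molecular identifier (UMI). Of 45328 cells with 500 to 6000 detected genes and at most 25% mitochondrial UMIs, 2326 met this rule. They came almost wholly from the uninjured bones, with 2274 in Control and 52 in Fracture. Because the rule used measured values of Mcpt8 and Prss34, the levels that set these cells apart from other cells are given as a description, without a test.

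Basophils are rare granulocytes that arise in the bone marrow from progenitors expressing the transcription factor Gata2, and they carry the high-affinity receptor for immunoglobulin E. When that receptor is cross-linked they release histamine and proteases from granules and secrete interleukins and chemokines. Mouse basophils are told apart from mast cells by the protease Mcpt8, whereas mast cells carry the chymase Cma1, tryptases and high levels of the receptor Kit.

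The study compared C57BL/6 female mice 14 days after a fracture of the left leg, made at 10 weeks of age by three-point bending and then held by an intramedullary nail, with uninjured mice of 12 weeks. Cells were released from bone by digestion and put through magnetic depletion of lineage-positive cells and then of CD45-positive and CD117-positive cells, a procedure meant to enrich stromal cells. The basophil-lineage cells are therefore cells that remained after a step directed against blood cells. Each group held 2 preparations (Control-1, Control-2, Fracture-1 and Fracture-2), each sequenced as 2 libraries, and nothing in the labels gave the number of mice behind a preparation. Tests of Fracture against Control compared preparations, so that their p-values measure only the spread between these samples, which may be technical. Comparisons of cell states within Control set classes of cells from the same 2 preparations against each other, with the preparation as a term. Their p-values measure how alike the difference was in those 2 preparations, with a spread estimated partly from all genes together. That spread may be technical too.

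The 8 libraries held between 56543151 and 89126291 UMIs each. In Control, basophil-lineage cells were 818 of 6449 and 768 of 6306 cells in the libraries of Control-1 (12.7% and 12.2%), and 346 of 4077 and 342 of 3844 cells in those of Control-2 (8.49% and 8.90%). In Fracture they were 9 of 5798 and 18 of 6069 cells (0.155% and 0.297%), and 13 of 6366 and 12 of 6419 cells (0.204% and 0.187%). The 4 Control libraries all lay far above the 4 Fracture libraries, and the Fracture-2 libraries lay between those of Fracture-1. Averaged over preparations, Control bone gave 10.6% ± 2.65 (SD, n = 2) and fractured bone 0.212% ± 0.0226 (SD, n = 2), a difference of -10.3 percentage points with p = 0.3333 in a two-sided exact permutation test, the smallest p that 2 against 2 allows.

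The barcode lists of the groups differed before any filter: Control tables held barcodes with as few as 1 UMI, and no Fracture barcode had fewer than 1929. Among cells with at least 3000 UMIs the difference was -10.999 percentage points. A further limit left out cells that also had 100 or more UMIs per 10,000 from genes listed for another lineage. By it, 1111 of 2274 Control cells and most Fracture cells were left out. The shares were then 5.69% ± 0.383 in Control and 0.0286% ± 0.00724 in Fracture (SD, n = 2), a difference of -5.66. The neutrophil genes counted held Mpo and also Ctsg, a granule gene of the basophil-lineage cells themselves. In Control-1 and Control-2 basophil-lineage cells these genes summed to 7738 and 7190 CPM, where 100 CPM are 1 of every 10,000 UMIs. Ctsg gave 5466 and 5216 CPM of these sums. The cells left out, called cells of mixed lineage below, are therefore not all shown to be mixed. With neutrophil, monocyte and megakaryocyte genes not counted for that limit the difference was -9.64. Neutrophil-lineage cells were also fewer in Fracture, since those cells (Elane, Mpo and Prtn3 at 20 or more of 10,000 UMIs) numbered 356 in Control-1 and 94 in Control-2, against 26 in Fracture-1 and 15 in Fracture-2. How far the depletion step set these shares was not tested. No 2 libraries shared more than 23 barcodes among the cells that passed, or more than 6 among the basophil-lineage cells.

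**Figure D1:**
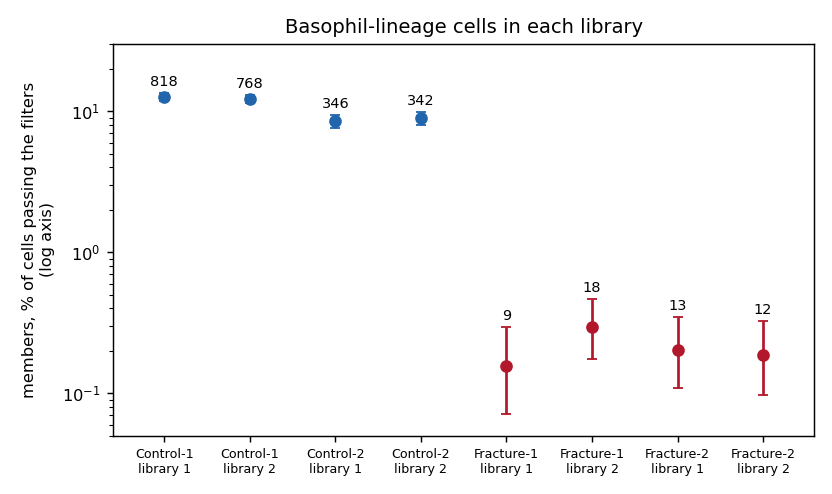
Share of basophil-lineage cells among cells passing the filters in each of the 8 libraries, on a logarithmic axis in percent. Points are the shares, bars are exact 95% binomial intervals that cover counting error only, and the number above each point is the count of basophil-lineage cells. The Control libraries lie between 8.49% and 12.7% and the Fracture libraries between 0.155% and 0.297%.

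The sequence upstream of the marker genes is shown because Gata2 was itself among the genes of these cells (1134 and 1162 CPM in Control-1 and Control-2, on a scale where 100 CPM are 1 of every 10,000 UMIs) and binds DNA at GATA letters. The 250 bases before the RefSeq start of each gene are given 5′ to 3′ on the strand of the gene, with the letters AGATAA, or TTATCT for the other strand, in capitals; these are chr14:56085198-56085447 (minus strand) for Mcpt8, chr17:25298144-25298393 (plus) for Prss34, chr3:20242182-20242431 (minus) for Cpa3, chr1:173227230-173227479 (minus) for Fcer1a and chr19:11623720-11623969 (minus) for Ms4a2, all in GRCm38.p6.
Mcpt8: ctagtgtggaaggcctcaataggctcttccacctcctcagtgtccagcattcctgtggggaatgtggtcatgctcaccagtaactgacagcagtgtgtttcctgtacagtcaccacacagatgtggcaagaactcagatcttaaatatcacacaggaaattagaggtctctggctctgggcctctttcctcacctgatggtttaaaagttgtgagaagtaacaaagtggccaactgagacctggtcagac
Prss34: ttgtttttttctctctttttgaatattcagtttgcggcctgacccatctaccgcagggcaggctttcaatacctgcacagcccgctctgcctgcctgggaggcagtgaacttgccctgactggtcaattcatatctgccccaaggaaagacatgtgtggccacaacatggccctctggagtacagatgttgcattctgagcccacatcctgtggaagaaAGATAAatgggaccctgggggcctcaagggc
Cpa3: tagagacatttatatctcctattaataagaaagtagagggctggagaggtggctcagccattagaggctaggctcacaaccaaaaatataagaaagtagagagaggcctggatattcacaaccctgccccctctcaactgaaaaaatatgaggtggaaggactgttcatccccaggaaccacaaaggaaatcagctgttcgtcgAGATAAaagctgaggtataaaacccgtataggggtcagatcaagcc
Fcer1a: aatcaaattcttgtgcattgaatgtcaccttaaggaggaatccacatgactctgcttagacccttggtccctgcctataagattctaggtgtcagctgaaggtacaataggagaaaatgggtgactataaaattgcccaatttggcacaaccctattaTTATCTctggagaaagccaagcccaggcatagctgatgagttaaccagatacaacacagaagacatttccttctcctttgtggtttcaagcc
Ms4a2: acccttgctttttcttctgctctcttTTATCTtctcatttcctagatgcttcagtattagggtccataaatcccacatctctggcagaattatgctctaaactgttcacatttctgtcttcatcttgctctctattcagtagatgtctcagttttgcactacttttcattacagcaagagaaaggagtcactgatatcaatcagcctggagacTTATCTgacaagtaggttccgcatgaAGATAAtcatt
The letters stood in 4 of the 5 windows, once at bases -31, -46 and -92 from the start in Prss34, Cpa3 and Fcer1a and at bases -224, -37 and -11 in Ms4a2, and were not in the Mcpt8 window. The RefSeq gene record of Mcpt8 reaches to base 56085499, so that all of its window lies inside the annotated gene. Those of Ms4a2, Cpa3 and Fcer1a reach to bases 11623790, 20242209 and 173227232, so that part of each of these windows lies inside the gene. The absence of the letters for Mcpt8 covers the start used for its window alone. Of 32851 mouse RefSeq windows of the same length, 3281 (9.99%) held them. A match of letters is a description and not a binding site.

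The basophil-lineage cells carried all 5 basophil markers. In Control-1 and Control-2, in that order, Mcpt8 stood at 17236 and 18674 CPM, against 64.5 and 24.2 CPM in all other Control cells. Prss34 stood at 29054 and 31172 CPM, against 67.2 and 26.0. Both genes were high by the rule itself. Cpa3, a granule carboxypeptidase, stood at 3621 and 3542 CPM, against 36.7 and 22.6. Fcer1a, the alpha chain of the immunoglobulin E receptor, stood at 1659 and 2075 CPM, against 10.2 and 5.90. Its beta chain gene Ms4a2 stood at 412 and 477 CPM, against 7.18 and 4.71. Each marker was higher in both preparations than in the other cells. Of the 25 genes with the highest ratio to the other Control cells, the chemokine genes Ccl3 and Ccl4, the cytokine gene Il6, the receptor gene Cd200r3, the steroid enzyme gene Cyp11a1 and the chemokine receptor gene Ccr1 ranked among the first 10, with 4 of the 5 markers, and Ms4a2 ranked at 13.

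Genes of histamine and granule biology were present as well. Hdc, which makes histamine, stood at 1501 and 1273 CPM, the vesicular amine transporter Slc18a2 at 243 and 245, the granule proteoglycan Srgn at 4428 and 3782 and the protease Ctsg at 5466 and 5216 CPM. The lipid mediator genes Alox5 and Alox5ap stood at 245 and 303 and at 933 and 1039.5 CPM, whereas Ltc4s, whose enzyme completes leukotriene C4, stood at 2.69 and 2.08 CPM. Of the interleukins of basophils, Il4 stood at 89.4 and 101 CPM and Il13 at 21.9 and 10.3 CPM.

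Mast cell genes were nearly absent. Of the 7 mast cell markers in the tables, Cma1 stood at 0.290 and 1.04 CPM, Mcpt4 at 0.0726 and 0.130, Tpsb2 at 0.218 and 0 and Mcpt2 at 0.0726 and 0 CPM, Mcpt1 and Mrgprb1 were at 0 in both preparations, and Kit, the target of the CD117 beads, stood at 27.2 and 30.04 CPM. Ptprc, which encodes CD45, stood at 105 and 124 CPM in the basophil-lineage cells and at 108 and 114 CPM in the neutrophil-lineage cells that also remained. The neutrophil granule gene Mpo reached 1988 and 1723 CPM in the basophil-lineage cells against 4218 and 4259 in the neutrophil-lineage cells, and Elane 69.7 and 58.0 against 1434 and 3483 CPM. The neutrophil-lineage cells were chosen by Elane, Mpo and Prtn3, so that high levels there follow from the choice. Irf8, a factor of monocytes and dendritic cells, was at 9.44 and 3.25 CPM, against 2581 and 2379.7 CPM in cells chosen by Irf8, Csf1r and Ly86.

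**Figure D2:**
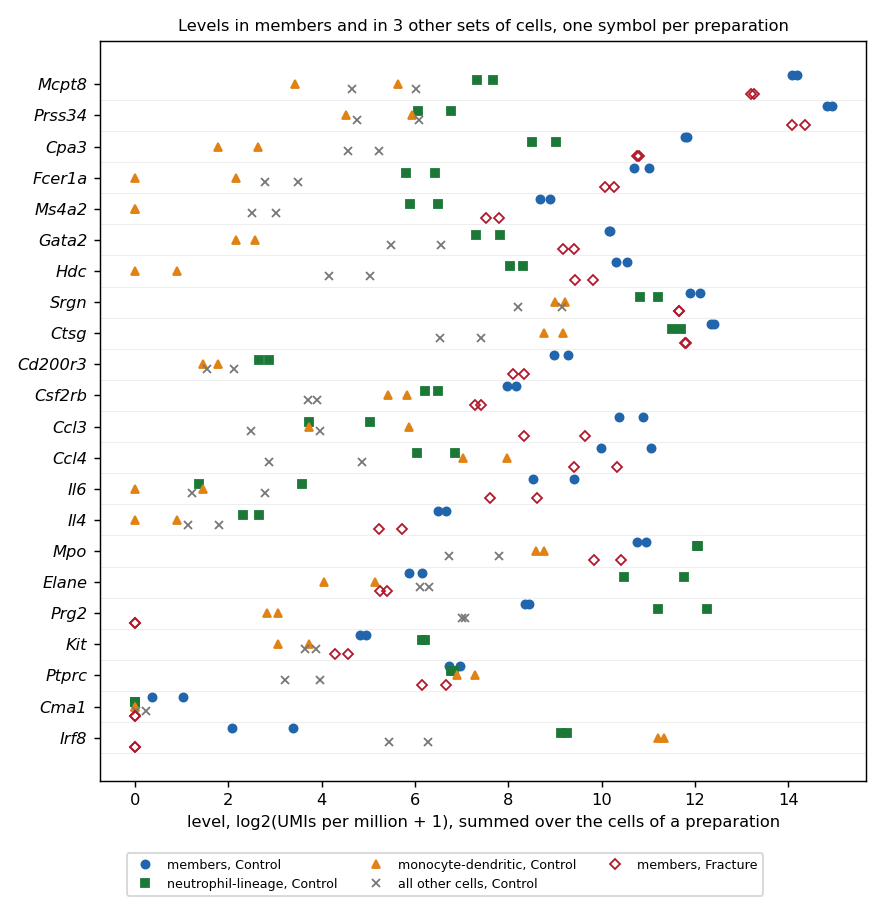
Levels of 22 genes in CPM on a log2(x + 1) axis, with 1 symbol per preparation, in basophil-lineage cells of Control (blue circles) and Fracture (open red diamonds) and, in Control, in neutrophil-lineage cells, monocyte-dendritic cells and all other cells. Basophil markers and Ccl3 are highest in the basophil-lineage cells, and Cma1 lies at or near 0 in every set. Mpo and Elane are highest in the neutrophil-lineage cells, which were chosen by them and Prtn3.

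The threshold cut a range with cells on both sides. In Control-1 and Control-2, 111 and 16 cells lay just inside it, with 20 to under 30 of 10,000 UMIs from Mcpt8 and Prss34, and 400 and 55 cells just outside, with 10 to under 20. Most basophil-lineage cells lay far above it, 1122 and 529 of them at 200 or more. Over all cells that passed, the median was 1.42 and 1.41 of 10,000 UMIs in the Control-1 libraries and 0 in the other libraries. The part of this background in the share of Control-1 was not tested. The cells just inside had Cpa3 at 1268 and 1694 CPM and those just outside at 661 and 1312 CPM. Chondrocyte, osteoblast, stromal, endothelial and erythroid genes together summed to 10402 and 1379.5 against 23462 and 12405 CPM. This sum did not fall steadily within the rule, since it was 34913 and 5049 CPM at 30 to under 50 of 10,000 UMIs and 47280 and 5374.5 CPM at 50 to under 200. The cells just inside held a median of 1386 and 12350 UMIs, against 8332.5 and 10752 for all basophil-lineage cells, below in Control-1 and above in Control-2. The cells near the limit were mostly chemokine-low by the class defined next: chemokine-high cells were 9.91% and 18.8% of those just inside, and 52.3% and 45.2% of those with 200 or more of 10,000 UMIs from Mcpt8 and Prss34. Elane stood at 299.8 and 39.3 CPM just inside and at 36.3 and 17.0 CPM at 200 or more.

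Among the Control basophil-lineage cells, 2 properties were used to describe states, each read as a share of the UMIs of a cell. A cell was called cycling when 23 genes of the G2 and M phases, among them Mki67, Top2a and Ccnb1, gave at least 10 of 10,000 UMIs, and chemokine-high when Ccl3 and Ccl4 together gave at least 10. The split did not read G1 or S phase, so that non-cycling means under this limit and not at rest. S-phase genes summed to 2240 and 2342 CPM in cycling and 1428 and 1274 CPM in non-cycling cells of Control-1 and Control-2. Ccl3 and Ccl4 encode macrophage inflammatory proteins 1 alpha and 1 beta, secreted ligands that draw leukocytes, and their annotated gene bodies overlap on chromosome 11, so that their reads can be split uncertainly. Cycling cells were 744 of 1586 in Control-1 (46.9%, exact 95% interval 44.4 to 49.4) and 313 of 688 in Control-2 (45.5%, 41.7 to 49.3). Chemokine-high cells were 691 (43.6%, 41.1 to 46.1) and 265 (38.5%, 34.9 to 42.3). These classes are ranges and not types: 16.7% and 19.6% of cells had between 5 and 20 of 10,000 UMIs from Ccl3 and Ccl4, and 14.6% and 10.6% had that range of the G2 and M genes.

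The chemokine reads were not spread evenly over all cells. At least 1 UMI of Ccl3 or Ccl4 was found in 72.3% and 73.4% of basophil-lineage cells (median depth 8332.5 and 10752 UMIs), and in 9.61% and 4.03% of erythroid cells (4446.5 and 12259 UMIs), which should lack both. Other myeloid cells lay between, with 47.5% and 29.8% of neutrophil-lineage and 60.2% and 54.5% of monocyte-dendritic cells, all at greater median depth. With every cell thinned to 1000 UMIs, which left out 74 and 2 basophil-lineage cells, the shares were 51.9% and 45.5% in basophil-lineage cells and 1.25% and 0.354% in erythroid cells. The thinned shares were 11.9% and 5.38% in neutrophil-lineage cells and 20.7% and 9.09% in monocyte-dendritic cells, of which there were 88 and 22. The highest cell held 1022 UMIs of Ccl3 and Ccl4 per 10,000 in Control-1 and 955 in Control-2. Chemokine-high cells were 38.4% of cycling and 48.1% of non-cycling cells in Control-1, and 34.8% and 41.6% in Control-2. The share was lower among cycling cells in both preparations, by 8.22 percentage points on average, given without a test. With limits of 5 for both the chemokines and the G2 and M genes it was lower by 5.17 and 1.10 points, and the mean difference was -3.13.

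**Figure D3:**
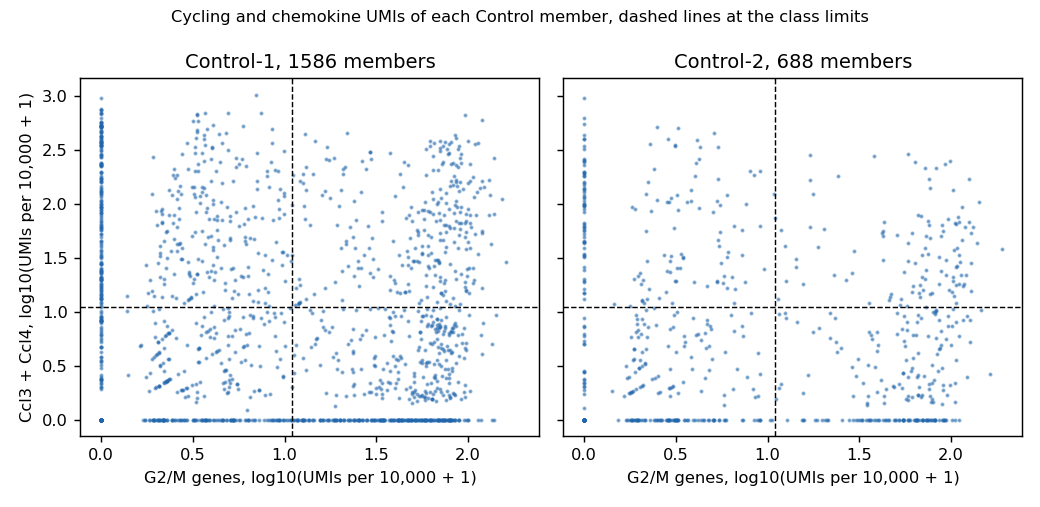
Each point is a Control basophil-lineage cell, placed by its UMIs of 23 G2 and M genes (horizontal) and of Ccl3 and Ccl4 (vertical), both as log10 of UMIs per 10,000 plus 1, for Control-1 and Control-2. Dashed lines mark the limits of 10 per 10,000. Cells with high Ccl3 and Ccl4 are found on both sides of the vertical line, in 38.4% and 34.8% of cycling and 48.1% and 41.6% of non-cycling cells.

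Chemokine-high cells carried more of several other secreted factors. UMIs were summed over the chemokine-high and over the chemokine-low cells of each preparation and compared by edgeR's quasi-likelihood test with the preparation as a term, leaving out Ccl3, Ccl4, Mcpt8 and Prss34. Of 11647 genes tested, 1427 (12.3%) were higher and 1143 (9.81%) lower at an adjusted p under 0.05. Without the preparation as a term, 37 were higher and 1 lower, and 113 of the 124 called genes followed here (those of the lists and the 12 largest changes each way) lost their call. DESeq2 called 493 higher and 179 lower. The median log2 fold change of all genes was -0.02. Values below are CPM in Control-1 and Control-2, and log2 fold changes are given with their standard error.

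Of 5 other chemokine ligand genes tested, 3 rose and 1 fell. Ccl6, a ligand of Ccr1, stood at 311 and 454 CPM in chemokine-high and 24.1 and 29.8 CPM in chemokine-low cells, a 14.9-fold rise (log2 fold change 3.89 ± 0.092, adjusted p = 6.32e-15), the largest rise among called genes with a mean of at least 20 CPM. Ccl9, another Ccr1 ligand, stood at 614 and 626 against 158 and 223 CPM (log2 fold change 1.82 ± 0.099, adjusted p = 2.33e-10). Ccl17 rose at low levels (19.9 and 15.5 against 10.97 and 8.28 CPM), and Cxcl10 fell (4.18 and 3.55 against 11.3 and 13.3 CPM). Each of these moved the same way in both preparations, as did 2548 of the 2570 called genes. Ccl6 came from 460 cells, 26.8% of its UMIs from 20 of them. Ccl1, Ccl12 and Ccl22 had no UMI in any Control basophil-lineage cell, and Ccl2, Ccl5, Ccl7 and Ccl24 stood under 1 CPM over all Control basophil-lineage cells of each preparation.

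Of 11 cytokine and growth factor genes, 8 rose and none fell, with a median log2 fold change of 1.47. Il6 stood at 1278 and 836 CPM in chemokine-high and 331 and 172 CPM in chemokine-low cells (log2 fold change 2.20 ± 0.090, adjusted p = 7.09e-12). Osm, whose product oncostatin M belongs to the interleukin 6 family, stood at 729 and 557 against 217 and 123 CPM (log2 fold change 2.04 ± 0.094, adjusted p = 2.52e-11). Both were higher in the chemokine-high cells of each preparation, and both were lower in Control-2 than in Control-1 within a class. Of the type 2 cytokines, Il4 stood at 151 and 171 against 54.0 and 71.4 CPM (log2 fold change 1.47 ± 0.087). Il13 stood at 50.6 and 29.7 against 5.48 and 2.21 CPM (log2 fold change 3.44 ± 0.20). It was carried by 187 cells, and 37.8% of its UMIs lay in 20 of them. Tnf, Csf1, Hgf and Il1b also rose, with log2 fold changes from 1.00 (Csf1, the macrophage growth factor) to 1.63 (Tnf). Il1b differed between preparations more than between classes, at 229.7 and 42.1 against 107 and 2.39 CPM.

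Genes of basophil identity rose with the chemokines. Of the 21 listed, 18 rose and none fell, with a median log2 fold change of 1.09. Cd200r3 stood at 907 and 1221 CPM in chemokine-high and 276 and 369.5 CPM in chemokine-low cells (log2 fold change 1.81 ± 0.080, adjusted p = 1.60e-11). Il18r1, a chain of the interleukin 18 receptor, stood at 96.6 and 145 against 23.2 and 37.5 CPM (log2 fold change 2.10 ± 0.095). Lilrb4, an inhibitory receptor gene, stood at 186 and 213 against 27.4 and 25.2 CPM, and its near-identical neighbour Gp49a at 270.3 and 342 against 30.3 and 28.2 CPM, a pair between which reads can be split uncertainly. Mcpt8 and Prss34, left out of the test as genes of the rule, summed to 63439.5 and 73546 CPM in chemokine-high and 36456 and 40009 CPM in chemokine-low cells.

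The immunoglobulin E receptor and its signalling genes followed the same direction, with 11 of 17 higher and none lower (median log2 fold change 0.49). Fcer1a stood at 2109 and 2869 against 1401 and 1745 CPM (log2 fold change 0.75 ± 0.084, adjusted p = 2.95e-06). Fcer1g, the shared gamma chain, stood at 2455 and 2658 against 1476 and 1546 CPM. Ms4a2 stood at 466 and 523 against 381 and 458 CPM (log2 fold change 0.33 ± 0.078). Of 6 chemokine receptor genes, 5 rose and Cx3cr1 fell. Ccr1 stood at 410.1 and 444 against 211 and 240.3 CPM and Ccr2, the receptor for Ccl2, at 53.8 and 86.9 against 7.88 and 14.4 CPM. Cxcr4, a receptor for the marrow chemokine Cxcl12, stood at 537 and 395 against 337 and 270 CPM.

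Of 14 cytokine receptor genes, 7 rose and Kit fell. Il7r, a receptor chain for interleukin 7 and thymic stromal lymphopoietin, had the largest rise of the list at low levels (19.9 and 33.7 against 0.685 and 1.66 CPM, log2 fold change 4.64 ± 0.30). Csf2rb, the beta chain shared by the receptors for interleukin 3, interleukin 5 and GM-CSF, stood at 367 and 446 against 185 and 220.3 CPM (log2 fold change 1.09 ± 0.076, with reads that may be shared with the near-identical Csf2rb2). Kit stood at 14.7 and 4.88 against 34.3 and 40.5 CPM (log2 fold change -1.62 ± 0.24, adjusted p = 7.22e-05). The granule and histamine list was divided: 7 of 16 rose, Vamp8 fell, and 8 were not called, with a median log2 fold change of 0.18. Hdc stood at 2169 and 2034 against 1117 and 957 CPM (log2 fold change 1.11 ± 0.083). Gzmb, granzyme B, stood at 238 and 105 against 53.8 and 35.5 CPM (log2 fold change 2.02 ± 0.11). Cpa3 rose by less (4118 and 3820.1 against 3336 and 3427 CPM, log2 fold change 0.32 ± 0.089), and Srgn (4605 and 3856 against 4326 and 3750.4 CPM) and Ctsg (4866 and 4158 against 5811 and 5656 CPM) were not called.

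Of 22 transcription factor genes, 7 rose and 4 fell. Nfil3 had the largest rise (81.7 and 90.4 against 20.4 and 21.9 CPM, log2 fold change 2.11 ± 0.11), and Cebpb (1212 and 1073 against 603 and 498 CPM) and Gata2 (1517 and 1569 against 915 and 993 CPM) rose as well. Myb, a factor of blood progenitors, stood at 135 and 98.9 against 251 and 265 CPM (log2 fold change -1.02 ± 0.10, adjusted p = 7.83e-07) and Myc at 31.3 and 23.1 against 56.4 and 43.1 CPM. Of 32 immediate early and stress genes, 24 rose and 2 (Dusp2 and Hspa8) fell, with a median of 0.76. Zfp36, which limits cytokine transcripts, stood at 278 and 234 against 91.4 and 50.8 CPM, and Nfkbid, an inhibitor protein of NF-kappa B, at 133 and 129 against 48.9 and 52.3 CPM. Such genes can be induced while tissue is digested, and whether that happened here was not tested.

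Neutrophil granule genes were lower in chemokine-high cells. Of 7 neutrophil genes tested 5 fell and none rose, and of 5 eosinophil genes 3 fell and Ccr3 rose. Mpo stood at 1083 and 566 CPM in chemokine-high and 2507 and 2203 CPM in chemokine-low cells (log2 fold change -1.48 ± 0.13, adjusted p = 9.97e-08). Elane, neutrophil elastase, stood at 16.9 and 5.76 against 99.9 and 79.7 CPM (log2 fold change -2.75 ± 0.16). Prtn3, proteinase 3, stood at 74.3 and 26.2 against 243 and 252 CPM (log2 fold change -2.13 ± 0.19). S100a8 and S100a9 were also called lower, but S100a8 was lower in Control-1 alone (2.191 and 2.22 against 15.6 and 1.66 CPM), and both turned higher (log2 fold changes 2.39 and 2.34) with a limit of 5 per 10,000 for the split. The 3 eosinophil genes that fell, Prg2, Prg3 and Epx, were each carried by few cells. Prg2, a basic protein of eosinophil granules, had the largest fall (6.37 and 24.4 against 511 and 483 CPM, log2 fold change -5.21 ± 0.22), but 98.1% of its 7188 UMIs lay in 16 cells with at least 5 Prg2 UMIs each, and without them its log2 fold change was -0.14 (adjusted p = 0.822). Prg3 and Epx had 96.7% and 94.1% of their UMIs in 20 cells, and without the same 16 cells the log2 fold change of Prg3 was -1.59, still called, and Epx did not pass the filter on low counts.

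The other rises among the 12 largest were of the vesicle gene Sytl3 (58.0 and 115 against 5.94 and 9.39 CPM), the adenosine receptor gene Adora2b (107 and 93.6 against 9.94 and 9.75 CPM), the adaptor gene Skap1, Irg1, whose enzyme makes itaconate, the granzyme gene Gzmc, the lymphotoxin gene Ltb and Lgals3, galectin 3, with log2 fold changes from 2.47 (Lgals3) to 3.54 (Sytl3). The other falls were of Bcl11a (20.9 and 15.5 against 65.0 and 74.3 CPM), Gsto1, Slc45a3, Gria3, Muc13, Slc4a8 and the cartilage collagen gene Col10a1, between -2.04 (Col10a1) and -1.40 (Slc4a8) on the log2 scale. Of the Col10a1 UMIs, 84.4% lay in 20 cells, and its direction turned (log2 fold change 0.40) when 194 Control cells with 100 or more stromal or erythroid UMIs per 10,000 were left out.

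Markers of other cells moved in both directions between the classes. Of the lists tested, 6 of 9 erythroid, 1 of 3 stem and progenitor, 2 of 5 lymphoid, 1 of 5 chondrocyte and 1 of 4 endothelial genes fell and none rose. Of 6 megakaryocyte genes 2 rose, of 6 osteoblast and stromal genes 2 rose and 2 fell, of 5 monocyte, macrophage and dendritic genes 1 rose and 2 fell, and of 11 interferon genes 1 rose and 2 fell. The summed osteoblast and stromal genes, all 6 of them detected, stood at 14014 and 2682 CPM in chemokine-high and 15171 and 1976 CPM in chemokine-low cells, so that they differed more between the preparations than between the classes. Chemokine-high cells held fewer UMIs (medians 6895 and 8523) than chemokine-low cells (9592 and 12423). Of the 23 G2 and M genes tested 2 rose and 1 fell, and of 19 S-phase genes 2 rose and none fell.

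**Figure D4:**
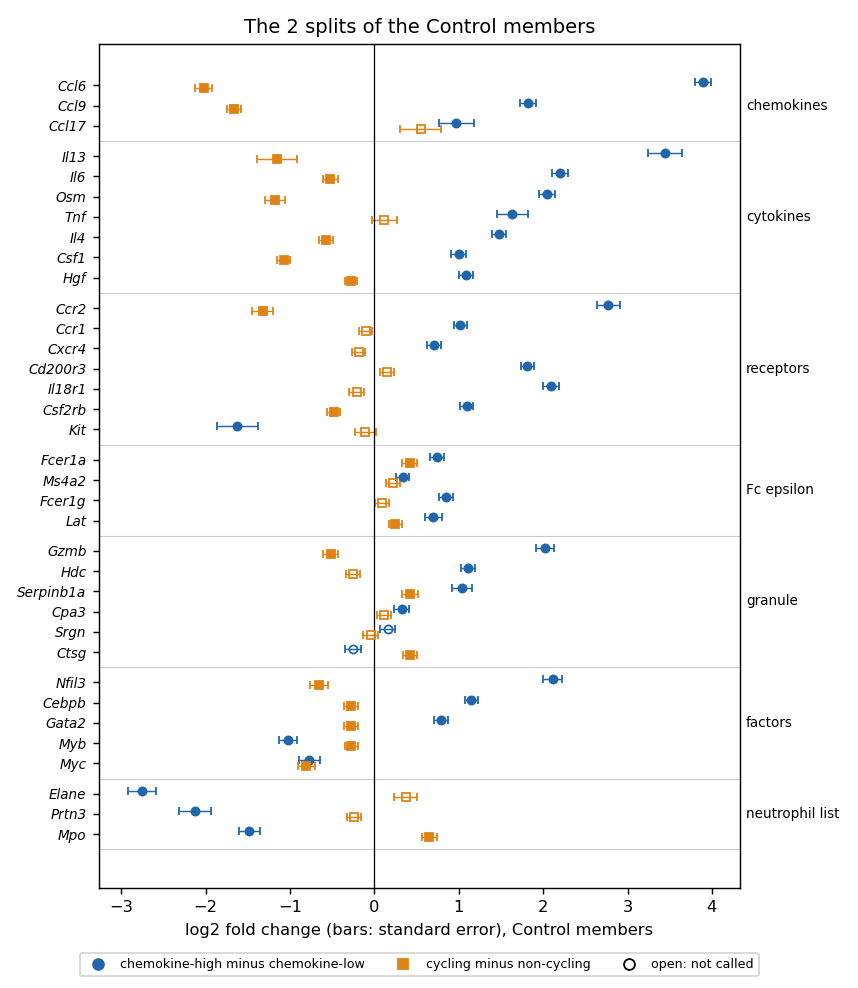
Log2 fold changes with standard errors (bars) of genes from 7 groups in Control basophil-lineage cells, for chemokine-high minus chemokine-low cells (blue circles) and cycling minus non-cycling cells (orange squares), with filled symbols for an adjusted p under 0.05. Of the chemokine, cytokine and receptor genes shown, all but Kit lie right of 0 in the first comparison and those called in the second lie left of 0. Fcer1a and Lat of the immunoglobulin E receptor list lie right of 0 in both. The genes shown are a selection from the lists. Cxcl10 and Cx3cr1, not shown, were called lower in chemokine-high cells. Cx3cr1, Il1rl1, Crlf2 and Il3ra, not shown, were called higher in cycling cells.

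Cycling cells were compared with non-cycling cells in the same way, leaving out the 23 genes of the split, Mcpt8 and Prss34. Of 11492 genes tested, 1374 (12%) were higher and 1225 (10.7%) lower, with a median log2 fold change of -0.06 over all genes. Without the preparation as a term, 268 were higher and 29 lower, and 82 of the 108 called genes followed here lost their call. DESeq2 called 493 higher and 155 lower. The 12 largest rises among called genes with a mean of at least 20 CPM were of Mxd3, Kif2c, Sapcd2, Fam64a, Gas2l3, Aspm, Shcbp1, Cep55, Prr11, Spc25, Esco2 and Nek2, most of them genes of mitosis, cytokinesis and chromosome segregation. Aspm, a spindle pole protein, stood at 93.4 and 119.8 CPM in cycling and 1.64 and 2.22 CPM in non-cycling cells (log2 fold change 5.79 ± 0.15, adjusted p = 1.15e-08). Such genes are active in the same phases as those of the split, so that their rise describes how the cells were divided.

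Of 19 S-phase genes, 9 rose and 3 fell. Rrm2, a subunit of ribonucleotide reductase, stood at 171 and 204 against 21.9 and 18.0 CPM (log2 fold change 3.20 ± 0.12). Tyms, thymidylate synthase, stood at 238 and 291 against 106 and 103 CPM (log2 fold change 1.34 ± 0.090). The falls were of 3 genes of the replicative helicase, which is loaded before S phase, Mcm2 (58.6 and 58.1 against 92.1 and 81.8 CPM), Mcm6 and Mcm4, and the direction of Mcm4 turned with a limit of 5 per 10,000 for cycling cells and without cells of mixed lineage. Ccnd2, a cyclin of G1, stood at 41.5 and 44.3 against 115 and 119 CPM (log2 fold change -1.44 ± 0.083).

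Secreted factors were lower in cycling cells. Of 7 chemokine ligand genes 4 fell and none rose, and of 11 cytokine and growth factor genes 7 fell and none rose. Ccl6 stood at 49.1 and 69.8 against 229 and 249.8 CPM (log2 fold change -2.03 ± 0.096, adjusted p = 2.14e-07). Ccl9 stood at 169 and 162 against 519.9 and 543 CPM (log2 fold change -1.66 ± 0.081). Both fell in each preparation, and 2536 of the 2599 called genes had the same direction in both preparations. Ccl3 stood at 1538 and 967 against 2331 and 1749 CPM (log2 fold change -0.71 ± 0.095). Osm stood at 289.9 and 134 against 548 and 381 CPM (log2 fold change -1.18 ± 0.12). Csf1 stood at 237 and 187 against 485 and 416 CPM and Il4 at 71.3 and 84.0 against 112 and 119 CPM. Within chemokine-low cells alone the log2 fold change of Ccl6 was -0.44 (adjusted p = 0.106). Those of Ccl3 and Ccl4 were 0.16 and 0.23 there (edgeR adjusted p = 0.326 and 0.170). The class was chosen by low levels of these 2 genes, so that their values within it cannot bear on the fall.

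The receptor and granule lists had calls in both directions. Of 21 basophil identity genes 3 rose (Clec12a, Il1rl1 and Il3ra) and 7 fell, with a median log2 fold change of -0.21, and of 16 granule and histamine genes 4 rose and 4 fell. Fcer1a was higher in cycling cells (1862 and 2339 against 1403 and 1776 CPM, log2 fold change 0.42 ± 0.085), as was Ctsg (6169 and 5875 against 4577 and 4471 CPM, log2 fold change 0.43 ± 0.083), whereas Cpa3 (3694 and 3684 against 3529 and 3382 CPM) and Hdc (1396 and 1142 against 1633 and 1421 CPM) were not called. Of 6 neutrophil genes 4 rose and none fell, with Mpo at 2329 and 2098 against 1557 and 1298 CPM (log2 fold change 0.65 ± 0.087), but S100a8 and S100a9, both called, were higher in Control-1 alone (S100a8 at 16.5 and 1.71 against 3.45 and 1.94 CPM). Of the other families, 2 of 17 immunoglobulin E receptor signalling genes rose and 3 fell, 1 of 6 chemokine receptor genes (Cx3cr1) rose and 3 (Ccr2, Ccr3 and Cxcr2) fell, and 3 of 14 cytokine receptor genes rose and 3 fell. Of 22 transcription factor genes 10 fell and none rose, among them Myc (34.2 and 28.9 against 63.8 and 46.6 CPM), Tal1 and Cebpa, and of 32 immediate early and stress genes 14 fell and Hspa8 rose. Of 11 interferon genes 4 fell and none rose.

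Stromal genes differed between the classes in opposite directions in Control-1 and Control-2. The summed osteoblast and stromal genes, all 6 detected, stood at 8548 and 3145 CPM in cycling and 22597 and 1095 CPM in non-cycling cells, and the summed chondrocyte genes, all 5 detected, at 1499.6 and 741 and 2400 and 1021 CPM. The first sum was lower in cycling cells of Control-1 and higher in those of Control-2, and the second was lower in both. Of the 12 largest falls, Mmp13, Gas6, Pcolce, Igfbp5 and Tm4sf1 had 50.3% to 68.8% of their UMIs in 20 cells each. The rest were Ccl6, Ltb, Tcp11l2, Dusp5, Ccl9, Ypel3 and Ccnd2. Without the 194 Control cells with many stromal or erythroid UMIs, 1811 genes were higher and 1607 lower. Cycling cells held more UMIs (medians 10413.5 and 12450) than non-cycling cells (7094 and 9649). Of the other cell lists, 5 of 9 erythroid genes rose, and 2 of 6 megakaryocyte, 2 of 5 chondrocyte, 3 of 4 endothelial, 1 of 5 lymphoid, 2 of 6 monocyte, macrophage and dendritic, and 3 of 5 eosinophil genes fell, with none of these lists having calls in both directions. Of the called endothelial genes, Cdh5 (6.76 and 4.90 against 31.6 and 2.77 CPM) and Emcn (1.82 and 3.18 against 17.9 and 3.05 CPM) were lower in Control-1 alone, as was the called megakaryocyte gene Ppbp (62.8 and 17.1 against 118 and 12.8 CPM). The called erythroid gene Hba-a1 was higher in Control-2 alone. In Control-1 it stood at 4.53 and 7.40 CPM in chemokine-high and chemokine-low cycling cells, against 9.64 and 8.89 CPM in non-cycling ones. The fall of the eosinophil gene Prg2 turned without Control-1 (log2 fold change 0.096), with cells thinned to 2000 UMIs (0.50) and without the 16 cells with at least 5 Prg2 UMIs (0.047).

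The 4 classes formed by both limits held 286, 458, 405 and 437 cells in Control-1 and 109, 204, 156 and 219 in Control-2, as cycling chemokine-high, cycling chemokine-low, non-cycling chemokine-high and non-cycling chemokine-low. Ccl6 stood in that order at 110 and 191, 21.1 and 25.1, 498 and 705 and 28.7 and 35.5 CPM, Control-1 before Control-2 in each. Ccl9 stood at 285 and 246, 116 and 131, 921 and 988 and 221 and 334 CPM. Both were highest in the non-cycling chemokine-high cells of each preparation, with no overlap with any other class. Cd200r3 showed another order, at 968 and 1283, 306 and 432, 850 and 1161 and 231 and 293 CPM, in which the chemokine-high classes overlapped with each other and not with the chemokine-low classes. Hdc stood at 2154 and 1843, 1047 and 884, 2183 and 2216 and 1224 and 1047 CPM, again with both chemokine-high classes above both chemokine-low classes. Ctsg was highest in the cycling chemokine-low cells of both preparations, at 6482 and 6364 CPM, and lowest in the non-cycling chemokine-high cells, at 4283 and 3784 CPM. Myb was highest in the non-cycling chemokine-low cells, at 279.6 and 308 CPM. Whether the effect of 1 limit differed across the other was not tested.

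**Figure D5:**
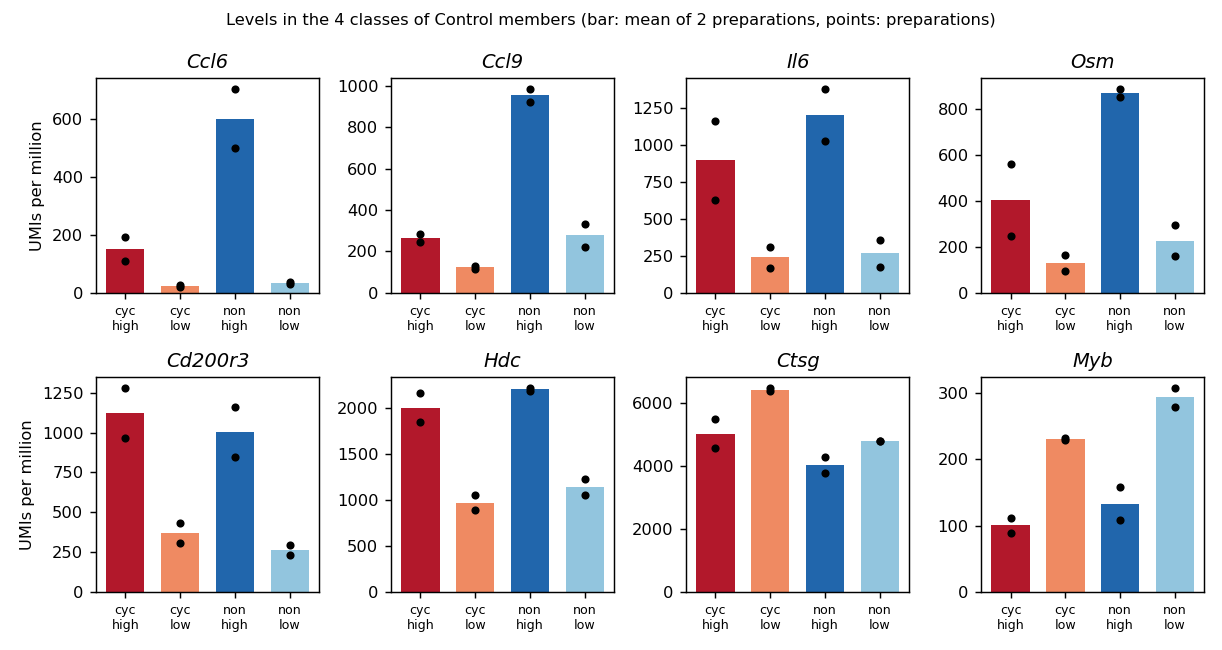
Levels of 8 genes in CPM in the 4 classes of Control basophil-lineage cells: cycling chemokine-high, cycling chemokine-low, non-cycling chemokine-high and non-cycling chemokine-low. Bars are the mean of 2 preparations and points are the preparations. Ccl6 and Ccl9 are highest in the non-cycling chemokine-high class, Cd200r3 and Hdc follow the chemokine limit in either class, and Ctsg is highest in the cycling chemokine-low class.

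The 52 Fracture cells were 27 in Fracture-1 and 25 in Fracture-2. Cycling cells were 14 (51.9%, exact 95% interval 31.9 to 71.3) and 16 (64.0%, 42.5 to 82.0), and chemokine-high cells 17 (63.0%, 42.4 to 80.6) and 8 (32.0%, 14.9 to 53.5). The cycling share was 57.9% ± 8.59 (SD, n = 2) against 46.2% ± 1.00 (SD, n = 2) in Control, a difference of 11.7 percentage points (exact permutation p = 0.3333, two-sided, the smallest possible). Both Fracture values lay above both Control values, but the counting intervals overlapped. Without cells that had 100 or more stromal or erythroid UMIs per 10,000, which left 14 and 17 Fracture cells, the difference was 30.4 points. Without Fracture-2 it was 5.65 points. As the share of cells with at least 1 UMI of the G2 and M genes after thinning to 1000 UMIs it was 5.27 points. The share with a thinned UMI of Mki67 or Top2a was 25.9% and 60.0% in Fracture against 35.6% and 36.6% in Control, so that the Fracture values lay on either side of the Control values. The chemokine-high shares of Fracture-1 and Fracture-2 lay on either side of the Control values.

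Fracture and Control basophil-lineage cells were compared by edgeR on the 4 sums, without Mcpt8 and Prss34. Of 11571 genes 23 (0.199%) were higher and 4 (0.0346%) lower in Fracture, and 2292 had an unadjusted p under 0.05. The count rested on few samples, since 0 genes were called without Fracture-1 or without Fracture-2 (1913 and 1760 at an unadjusted p under 0.05), 406 were higher and 156 lower without Control-1 and 281 and 92 without Control-2, and DESeq2 on all 4 sums called 727 higher and 371 lower. The median log2 fold change of all genes was -0.09.

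The 4 genes lower in Fracture were Ccr1, Prg2, Sdf2l1 and F630028O10Rik. Ccr1, a receptor for the ligands Ccl3, Ccl6 and Ccl9, stood at 91.4 and 84.7 CPM in Fracture and 283 and 300.2 CPM in Control (3.36-fold lower, log2 fold change -1.75 ± 0.17, adjusted p = 0.0418). Sdf2l1, of the endoplasmic reticulum, stood at 183 and 192 against 597 and 530 CPM, and F630028O10Rik at 22.8 and 33.1 against 387 and 309 CPM. The groups did not overlap for these genes, but that was a condition for naming them and held for all 27 called genes. When cells with 100 or more stromal or erythroid UMIs per 10,000 were left out, Ccr1 (log2 fold change -1.46, adjusted p = 0.131) and Sdf2l1 (adjusted p = 0.218) were no longer called. That fit held 14 and 17 Fracture cells, fewer than the 20 per preparation asked of the main test. A call lost there does not show that the difference was gone. Prg2 had no UMI among 490361 UMIs in Fracture cells, against 327 and 349 CPM in Control, but the Control value was carried by 16 of 2274 cells, those with 5 or more Prg2 UMIs, so that 52 Fracture cells are too few to compare. Without those cells 10 genes were higher and 2 lower in Fracture.

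The basophil markers that were not part of the rule were lower in Fracture cells without passing the test. Cpa3 stood at 1778 and 1720 against 3621 and 3542 CPM (log2 fold change -1.05 ± 0.14, adjusted p = 0.0618). Ms4a2 stood at 183 and 221 against 412 and 477 CPM (adjusted p = 0.0773), and Fcer1a at 1225 and 1079 against 1659 and 2075 CPM (adjusted p = 0.125). Both Fracture values lay below both Control values for each, but the share of all 11571 tested genes that separated in this way is not given here. In the same cells the chondrocyte genes summed to 17168 and 26370 CPM in Fracture against 1897 and 873 CPM in Control. The osteoblast and stromal genes summed to 61925 and 18481 against 14749 and 2183 CPM. The part of these transcripts in the lower marker levels was not tested. Mcpt8 and Prss34, which made the rule, summed to 30912 and 26871 CPM in the Fracture and 46290.1 and 49846 CPM in the Control cells, without a test. None of the 21 basophil identity genes was called, which with 52 cells does not show that they were alike, with a median log2 fold change of -0.83, and none of 16 granule genes, 8 chemokine ligand genes or 11 cytokine genes was. Ccl3 stood at 799.7 and 324 against 1888 and 1334 CPM and Il6 at 393 and 195 against 676 and 367 CPM. Of the 32 immediate early and stress genes Gadd45b was called, at 338 and 306 against 28.1 and 38.2 CPM.

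The 12 largest rises in Fracture cells were of Moxd1, Matn4, Itm2a, Aebp1, Capn6, Matn3, Ndufa4l2, Lect1, Col2a1, Fmod, Col9a2 and Col9a3, most of them genes of cartilage matrix. Col2a1, the main cartilage collagen, stood at 13553 and 20989.5 CPM in Fracture and 1501 and 709 CPM in Control basophil-lineage cells (log2 fold change 3.94 ± 0.43, adjusted p = 0.0418). Of the 5 chondrocyte genes listed, Col2a1 and Matn3 were called. The 5, all detected, summed to 17168 and 26370.4 CPM in the Fracture and 1897 and 873 CPM in the Control basophil-lineage cells, and to 51012 and 50389 CPM in all other Fracture cells. In the Fracture cells the 6 osteoblast and stromal genes summed to 61925 and 18481 CPM and the erythroid genes to 5026 and 383 CPM. By the limit of 100 stromal or erythroid UMIs per 10,000, 21 of 52 Fracture cells and 194 of 2274 Control cells were left out, and of the genes called before, none of the 23 higher and 2 of the 4 lower (Prg2 and F630028O10Rik) were called again, with 1 higher and 4 lower in all. The other 3 (Darc, Txnip and Gm23849) are named because the count is small, after their values were seen.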

How the data were processed

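Per the labels, the authors made single-cell libraries with Chromium 3′ v3 chemistry, and the submitters' processing notes name bcl2fastq 2.19.1.403, UMI-tools 1.0.0, STAR 2.7.3a and Subread featureCounts 1.6.4 with mm10, whereas the methods of the study name STARsolo and EmptyDrops for single cells. Which made the deposited tables could not be settled, and the strand setting is not given in the sources used here. Each library was deposited as 1 table of raw counts, whose values are the number of UMIs of a gene in a barcode.

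Of 48903 barcodes, 45328 had 500 to 6000 genes and at most 25% mitochondrial UMIs. No doublet caller was run. In the Control-1 tables, 290 genes with symbols beginning with U had no UMI, against 1.32% of UMIs elsewhere, and were left out of all fits. The members, gene lists and limits were chosen with earlier results of these data known. The 2 libraries of a preparation, which the labels number as rep1 and rep2, were summed, and the state comparisons had the preparation as a term because both classes of cells came from the same preparation. Genes with too few UMIs were removed by filterByExpr, and counts were scaled by TMM and tested by edgeR 4.0.16 (glmQLFTest, Benjamini-Hochberg over all genes, threshold 0.05), with DESeq2 1.42.0 as an alternative, in R 4.3.3. The step was tested on simulated data.

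Named genes were the 12 largest rises and falls among called genes with the same direction in each preparation and a mean of at least 20 CPM, and the called genes of the lists. Lilrb4a, Pclaf and Siglecf are Lilrb4, 2810417H13Rik and Siglec5 in the tables. Promoter sequences are from RefSeq (GRCm38.p6), and all 5 markers matched by symbol. Binomial intervals are Clopper-Pearson and, like the floor of 3 UMIs, cover counting error only. Levels are CPM of summed UMIs. Alternatives were other limits, normalization, no filter, thinned cells, the library as the unit, each preparation left out and cells of mixed lineage left out.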

Additional observations from a re-analysis of the deposited data

Results flagged for a closer look

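Of 46 groups of 4 libraries looked at for a library far from the others, 2 had one, and chance alone gives about 1 in 20. Il4 stood at 80.3 CPM in the first library of Control-1 basophil-lineage cells, and the other Control libraries lay between 98.8 and 102 CPM. Ms4a2 stood at 158 CPM in the second library of Fracture-1, where there were 18 cells, and the other Fracture libraries lay between 220.7 and 221 CPM.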

How the results depend on the processing

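The difference in the share of basophil-lineage cells (-10.3 percentage points) moved to -5.66 without cells of mixed lineage (-9.64 where neutrophil, monocyte and megakaryocyte genes were not counted), the difference in cycling share (11.7) moved to 30.4 without cells rich in stromal or erythroid genes, to 5.65 without Fracture-2 (17.8 without Fracture-1) and to 5.27 after thinning, and the chemokine-high share in cycling minus non-cycling cells (-8.22) moved to -3.13 with limits of 5 for both properties. Under DESeq2, 493 genes were higher and 155 lower in cycling cells, 493 higher and 179 lower in chemokine-high cells, and 727 higher and 371 lower in Fracture cells. With cells thinned to 2000 UMIs the counts were 722 and 592 for cycling and 858 and 601 for chemokine-high cells. Cycling cells compared within chemokine-low cells alone gave 821 and 475, and chemokine-high cells within non-cycling cells gave 787 and 337. A limit of 5 gave 563 genes lower in chemokine-high cells. For Fracture, no filter on low counts gave 934 higher and 625 lower, a rule of 50 per 10,000 gave 41 higher, leaving out cells rich in stromal or erythroid genes gave 1 higher, and leaving out the cells with 5 or more Prg2 UMIs gave 10 higher and 2 lower. The cause was not tested for any of these.

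The state comparisons had the preparation as a block, since both classes of cells came from the same preparation. With no replicate block 268 genes were higher and 29 lower in cycling cells, and 37 higher and 1 (Prg3) lower in chemokine-high cells. Fracture and Control preparations share only a number, with a correlation of 0.048 between the deviations of same-numbered preparations over 11571 genes, and a fit with the replicate block gave 705 higher and 364 lower. Leaving out 1 preparation at a time gave 0 to 406 genes higher and 0 to 156 lower in Fracture, with 0 without Fracture-1 or Fracture-2 (1913 and 1760 genes at an unadjusted p under 0.05 in edgeR). The lone preparation is then assumed to vary like the other group. For the state comparisons the unit was then the 2 libraries of 1 preparation, whose spread is technical.

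In cycling cells the log2 fold changes of Cd200r4 (0.12), Cyp11a1 (0.024), Ccl3 (0.16) and Ccl4 (0.23) turned positive within chemokine-low cells, that of Mcm4 at a limit of 5 (0.12) and without cells of mixed lineage (0.012), that of Klf4 without Control-1 (0.24, against -0.75 without Control-2), and that of Prg2 without Control-1 (0.096, against -0.25 without Control-2), with thinned cells (0.50) and without the cells with 5 or more Prg2 UMIs (0.047), and that of Pcna turned to -0.067 at a limit of 20. In chemokine-high cells the log2 fold changes turned of Col10a1 without cells of mixed lineage (0.34) and without cells rich in stromal or erythroid genes (0.40), Ccnb1 without cells of mixed lineage (0.12), Ifitm1 within cycling cells (-0.39), Kif11 within non-cycling cells (-0.81), and S100a8 (2.39) and S100a9 (2.34) at a limit of 5. Ccl3 and Ccl4 had set the chemokine-low class, and Kif11 was among the genes that set the non-cycling class. Their turns within those classes therefore cannot be read as results. Alternatives on cells rich in stromal or erythroid genes, on cells with Prg2 and within 1 class were chosen after seeing the data. With 2 preparations a group, no difference in shares can reach p under 0.3333 in the exact permutation test, and the 52 Fracture cells limit what can be seen there.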

Other observations

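The cells that held nearly all Prg2 UMIs were looked at after that was seen, without a test. In chemokine-low Control cells with 5 or more Prg2 UMIs (11 in Control-1 and 4 in Control-2), the eosinophil granule genes Prg3 (2812 and 1643 CPM) and Epx (2971 and 1095 CPM) and Cebpe, a transcription factor of granulocytes (497 and 621 CPM), were present, against at most 2.12 CPM of each in the chemokine-low cells without a Prg2 UMI. Mpo stood at 5666 and 5281 CPM against 2488 and 2141, and Elane at 677 and 998 CPM against 94.6 and 61.4. Prss34 stood at 5191 and 11171 CPM against 23214 and 25212, and Gata2 at 349 and 438 CPM against 915 and 1006. The groups did not overlap for these genes.

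Control-1 and Control-2 basophil-lineage cells also stood apart in some levels, which 1 preparation each does not allow to be tested. The 34 immediate early and stress genes summed to 19351 CPM in Control-1 and 13179 CPM in Control-2. Cd69, an early activation antigen, stood at 605 and 223 CPM, Il1b at 152 and 14.0 CPM and Cxcl2 at 62.6 and 12.5 CPM. Fcer1a went the other way, at 1659 and 2075 CPM, as did Hspa1a (4.501 and 26.4 CPM) and Hspa1b (8.93 and 106 CPM) of the stress list. The stromal genes Col1a1 (4959 and 662 CPM) and Bglap (2785 and 388 CPM) and the platelet gene Pf4 (243 and 53.7 CPM) were also higher in Control-1, and their part in these differences was not tested.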
